A study of Homo sapiens with 9 samples.

Results

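The genes described here encode the enzymes that make cholesterol from acetyl-CoA, the enzymes of fatty acid synthesis, and the proteins that switch both on. They were picked by symbol, by a rule that names no measured value, as the listed targets and components of the SREBP programme of sterol and fatty acid synthesis, a programme that mutant p53 has been reported to raise. The list holds 32 of the 58051 genes in the count table, and all 32 passed the filter on low counts. RNA was sequenced from A431, an epidermoid carcinoma cell line, in 3 groups of 3 libraries. A431 parental (mutp53) cells were untreated, A431 Ctrl (mutp53) cells had received the empty GFP CRISPR vector, and A431 p53 KO cells had received the GFP CRISPR construct against p53. All the groups derive from a line with endogenous mutant p53 and grew in the same serum-containing medium, DMEM with fetal bovine serum, until harvest 48 h after settling. Cells were taken through single colonies, and the labels do not say whether the libraries of a group are separate clones or cultures, so the p-values measure the spread between these libraries, which may be technical.

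SREBP-1 and SREBP-2, encoded by SREBF1 and SREBF2, are transcription factors held in the endoplasmic reticulum by the sterol sensor SCAP and its retention partners INSIG1 and INSIG2. When sterols run low, SCAP escorts them to the Golgi, where proteases release the part that enters the nucleus. SREBP-2 acts mainly on the mevalonate and cholesterol genes, and SREBP-1 mainly on fatty acid genes. Both act together with the factors NF-Y and SP1 at promoters. Activation takes place largely at the protein level, and RNA counts do not measure it.

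Most promoter windows found for the genes held letters read by NF-Y or SP1, while the form of the SREBP site searched for stood in 1 window. RefSeq promoter windows (GRCh38.p14) were found for 28 of the 32 genes, in 40 windows of 250 bases before a transcription start. The genes without an entry were ACAT2, FASN, FDFT1 and SQLE. Both strands were searched for TCACNCCAC, a form of the sterol regulatory element, for CCAAT, read by NF-Y, for GGGCGG, read by SP1, and for the palindrome CACGTG, an E-box. The NF-Y letters CCAAT stood in 23 of 40 windows (57.5%), belonging to 19 genes, against 32.008% of all 35116 RefSeq windows of that length. GGGCGG stood in 35 of 40 windows (87.5%), belonging to 27 genes, against 42.639% of all windows. TCACNCCAC stood in 1 window (2.5%), that of SREBF2, against 0.883%, and CACGTG in 4 (10.0%) against 6.345%. These matches describe the letters and do not show that a factor binds there. Windows of 5 genes on which the results turn are printed from 5′ to 3′ on the gene's strand, up to the base before the gene begins in GENCODE release 44. Capitals mark TCACNCCAC in SREBF2 and CCAAT in all of them, which reads ATTGG where it lies on the other strand. They are SREBF2 at chr22:41832855-41833104 (+), HMGCS1 at chr5:43313513-43313662 (−), LSS at chr21:46228825-46229024 (−), EBP at chrX:48521558-48521798 (+) and SCD at chr10:100346983-100347232 (+).
SREBF2: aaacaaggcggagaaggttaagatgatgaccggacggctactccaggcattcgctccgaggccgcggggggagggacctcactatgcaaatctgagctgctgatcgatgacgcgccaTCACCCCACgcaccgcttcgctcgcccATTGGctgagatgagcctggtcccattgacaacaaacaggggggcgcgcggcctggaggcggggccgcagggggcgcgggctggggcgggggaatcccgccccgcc
HMGCS1: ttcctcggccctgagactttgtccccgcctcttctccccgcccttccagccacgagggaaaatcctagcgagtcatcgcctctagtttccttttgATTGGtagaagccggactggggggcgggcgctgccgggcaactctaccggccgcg
LSS: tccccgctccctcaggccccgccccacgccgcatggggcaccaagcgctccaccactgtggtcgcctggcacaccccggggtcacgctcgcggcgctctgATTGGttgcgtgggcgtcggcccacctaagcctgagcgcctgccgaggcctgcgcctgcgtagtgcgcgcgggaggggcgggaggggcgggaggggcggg
EBP: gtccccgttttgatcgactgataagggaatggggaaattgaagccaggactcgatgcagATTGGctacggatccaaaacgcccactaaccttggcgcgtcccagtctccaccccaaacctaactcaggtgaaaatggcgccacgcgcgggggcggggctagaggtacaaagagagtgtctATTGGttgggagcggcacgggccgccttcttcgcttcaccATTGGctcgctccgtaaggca
SCD: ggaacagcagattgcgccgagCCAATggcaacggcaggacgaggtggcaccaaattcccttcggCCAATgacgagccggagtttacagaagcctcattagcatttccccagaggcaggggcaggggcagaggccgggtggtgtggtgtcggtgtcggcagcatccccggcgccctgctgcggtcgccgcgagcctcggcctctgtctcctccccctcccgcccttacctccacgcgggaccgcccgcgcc
In the SREBF2 window the sterol element began 133 bases before the start and CCAAT 106 bases before it. EBP held CCAAT 3 times, and SCD 2 times far from the start, at 229 and 186 bases. Over the full 250 bases, LSS carried GGGCGG 6 times, beside 2 times in SREBF2, HMGCS1 and SCD, and HMGCS1 held another CCAAT 100 bases before its RefSeq start, past the printed stretch.

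Library totals ran from 19783778 to 29840452 counts, lowest in Ctrl replicate 1 and p53 KO replicate 3, and depths cover counting error only. Levels are given in CPM, library-scaled counts after TMM normalisation. Of 7 epidermoid markers, KRT5, SFN and CDH1 were abundant while KRT14 was absent or nearly so, at 13 counts or fewer per library. By the edgeR test described below, 1 of the 6 tested rose and 1 fell against both controls, beside 6.46% and 5.25% of all genes. KRT6A rose in p53 KO cells, with log2 fold changes of 2.35 against parental and 2.75 against Ctrl, and CDH1 fell (-0.32 and -0.33). The leukocyte gene PTPRC was at 0 in every library, and 9 markers of other cell types together reached 2.98 to 5.2 CPM. In bulk RNA, fewer cells of a type and less RNA per cell cannot be told apart.

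**Figure D1:**
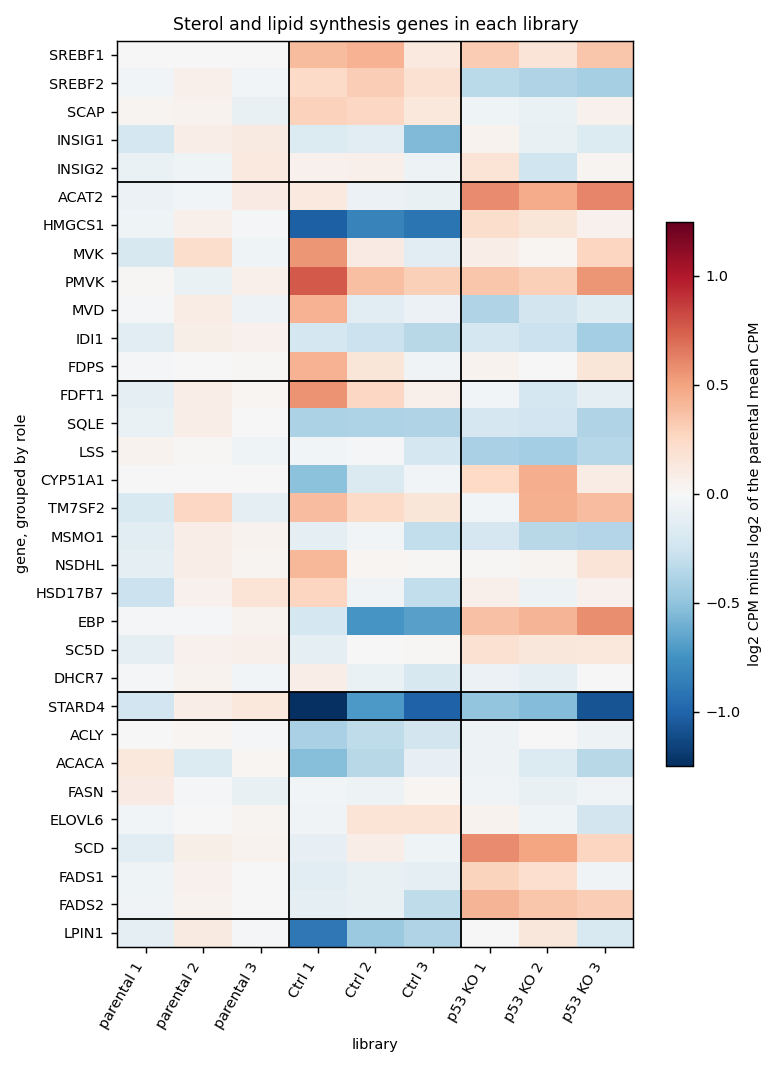
Each row is a gene and each column a library, with groups divided by vertical lines and roles by horizontal lines, and colour shows log2 CPM minus log2 of the parental mean CPM. Values run from -1.25 to 0.76, red and blue rows stand side by side within the larger roles, and HMGCS1 and STARD4 are the darkest blue rows in Ctrl libraries.

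Sterol and fatty acid synthesis genes did not shift as a block when p53 was deleted. ACAT2, EBP, FADS2 and SCD rose and LSS and SREBF2 fell in p53 KO cells against both controls, while the median gene of the list stayed at the level of all genes. Against parental cells, the list's median log2 fold change was 0.00, with 16 of 32 genes above zero and a range from -0.67 to 0.56. Over all 14513 genes tested, that median was 0.00648. Against Ctrl cells the list's median was 0.01, beside 0.00603 for all genes, with 16 genes above zero and a range from -0.62 to 1.06.

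A gene was called changed when edgeR's quasi-likelihood test, adjusted by Benjamini-Hochberg over all genes tested, gave an adjusted p of at most 0.05. In p53 KO against parental cells 11 of 32 genes (34.4%) were called, where the share among all genes was 18.1%. ACAT2, EBP, FADS2, PMVK and SCD rose, 5 genes beside 9.77% of all genes, and IDI1, LSS, MSMO1, SQLE, SREBF2 and STARD4 fell, 6 genes beside 8.36%. In p53 KO against Ctrl cells 13 of 32 (40.6%) were called, beside 29.2% of all genes. Those that rose were ACAT2, ACLY, CYP51A1, EBP, FADS1, FADS2, HMGCS1, LPIN1 and SCD, 9 genes beside 15%, and those that fell were FDFT1, LSS, SCAP and SREBF2, 4 genes beside 14.2%. These comparisons share the p53 KO libraries. Changed alike from each control were 6 of 32 genes (18.8%), beside 11.7% of all genes, with 4 up (background 6.46%) and 2 down (background 5.25%).

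Differences between the control groups were about as frequent. In Ctrl against parental cells 10 of 32 genes (31.2%) were called, beside 20.3% of all genes. PMVK, SREBF1 and SREBF2 were higher in Ctrl cells, 3 genes beside 10.6%, and ACLY, EBP, HMGCS1, IDI1, LPIN1, SQLE and STARD4 were lower, 7 genes beside 9.69%. The list's median log2 fold change there was -0.02, beside 0.00295 for all genes, and 12 of 32 genes lay above zero.

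All these changes were modest in size. The study also selected genes by a log2 fold change of 1.5, a limit passed by 1.95% of all genes against parental, 3.29% against Ctrl and 1.94% between the controls. It was passed by 0 of 32 genes in each of these comparisons. No gene of the list went beyond 1.06 in size in the main edgeR fit or by DESeq2. The largest value in any alternative fit was 1.16, by edgeR without Ctrl replicate 1. Without the size limit, an unadjusted edgeR p under 0.05 was reached by 12, 14 and 14 genes, beside 32%, 40.1% and 37.6% of all genes. DESeq2 called 12, 13 and 11, beside 10.3%, 15.7% and 12% of a larger table of 27464 genes. That table kept all genes with any count, also those too low for the edgeR filter. Its shares are therefore not on the same footing as those by edgeR.

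**Figure D2:**
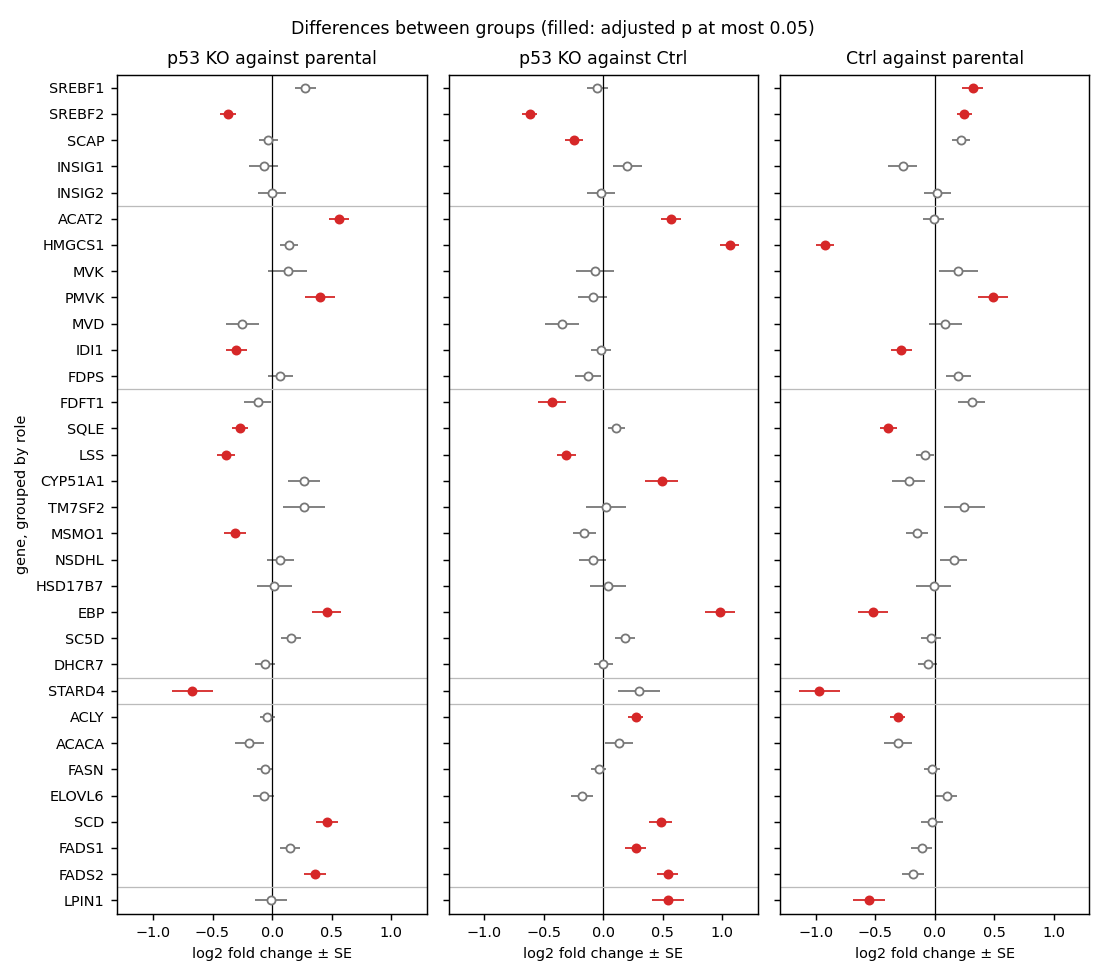
Points are log2 fold changes and bars their standard errors from the fit of all 9 libraries, one row per gene and one panel per comparison, with red filled points for an adjusted p of at most 0.05. In p53 KO against Ctrl cells HMGCS1 (1.06) and EBP (0.98) lie farthest right, and in Ctrl against parental cells the same genes lie on the left (-0.92 and -0.52).

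The regulators came first in the order of the pathway. SREBF2, which encodes SREBP-2, stood at 216, 231 and 216 CPM in the parental libraries, 261, 273 and 252 in the Ctrl libraries and 175, 170.3 and 166 in the p53 KO libraries. Every p53 KO library lay below every control, and every Ctrl library above every parental. It fell in p53 KO cells to 0.772 of the parental level (log2 fold change -0.37, SE 0.0638, adjusted p = 0.00226) and to 0.651 of the Ctrl level (-0.62, SE 0.0639, adjusted p = 4.39e-05). Ctrl cells lay above parental by 0.25 (adjusted p = 0.0221), a call that was lost without parental replicate 1 or 3 or Ctrl replicate 2 (adjusted p 0.0719 to 0.0939).

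SREBF1, encoding SREBP-1, was read at 189.7, 189 and 191 CPM in parental, 249, 257 and 207 in Ctrl and 237, 212 and 242 in p53 KO libraries. Both transfected groups lay above parental, and they overlapped with each other. The difference from parental was called in Ctrl cells (0.32, SE 0.0885, adjusted p = 0.0271) and missed the threshold in p53 KO cells (0.28, adjusted p = 0.0509). Leaving out any parental library or Ctrl replicate 2 ended the first call (adjusted p 0.0818 to 0.0912), and leaving out Ctrl replicate 1 or 3 brought the p53 KO difference below the threshold (0.0112 and 0.0171). In p53 KO against Ctrl cells SREBF1 differed by -0.05 (adjusted p = 0.746).

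SCAP, the escort and sterol sensor, was at 85.8, 86.3 and 78.5 CPM in parental, 102, 100.1 and 91.2 in Ctrl and 80.3, 79.1 and 86.5 in p53 KO libraries. It was lower in p53 KO than in Ctrl cells (-0.25, adjusted p = 0.0276), with no overlap, and differed from parental by -0.03 (adjusted p = 0.834). That call was lost without Ctrl replicate 2 or p53 KO replicate 1 or 2 (adjusted p 0.0832 to 0.114). INSIG1, itself a sterol-responsive SREBP target, measured 92.4, 114 and 116 CPM in parental, 95.6, 97.6 and 73.5 in Ctrl and 111, 101 and 95.4 in p53 KO libraries. INSIG2 gave 13.8, 14.0 and 15.9 in parental, 15.1, 15.2 and 13.9 in Ctrl, and 16.4, 12.3 and 14.9 in p53 KO libraries. Groups overlapped for both retention proteins, and neither was called in any comparison.

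**Figure D3:**
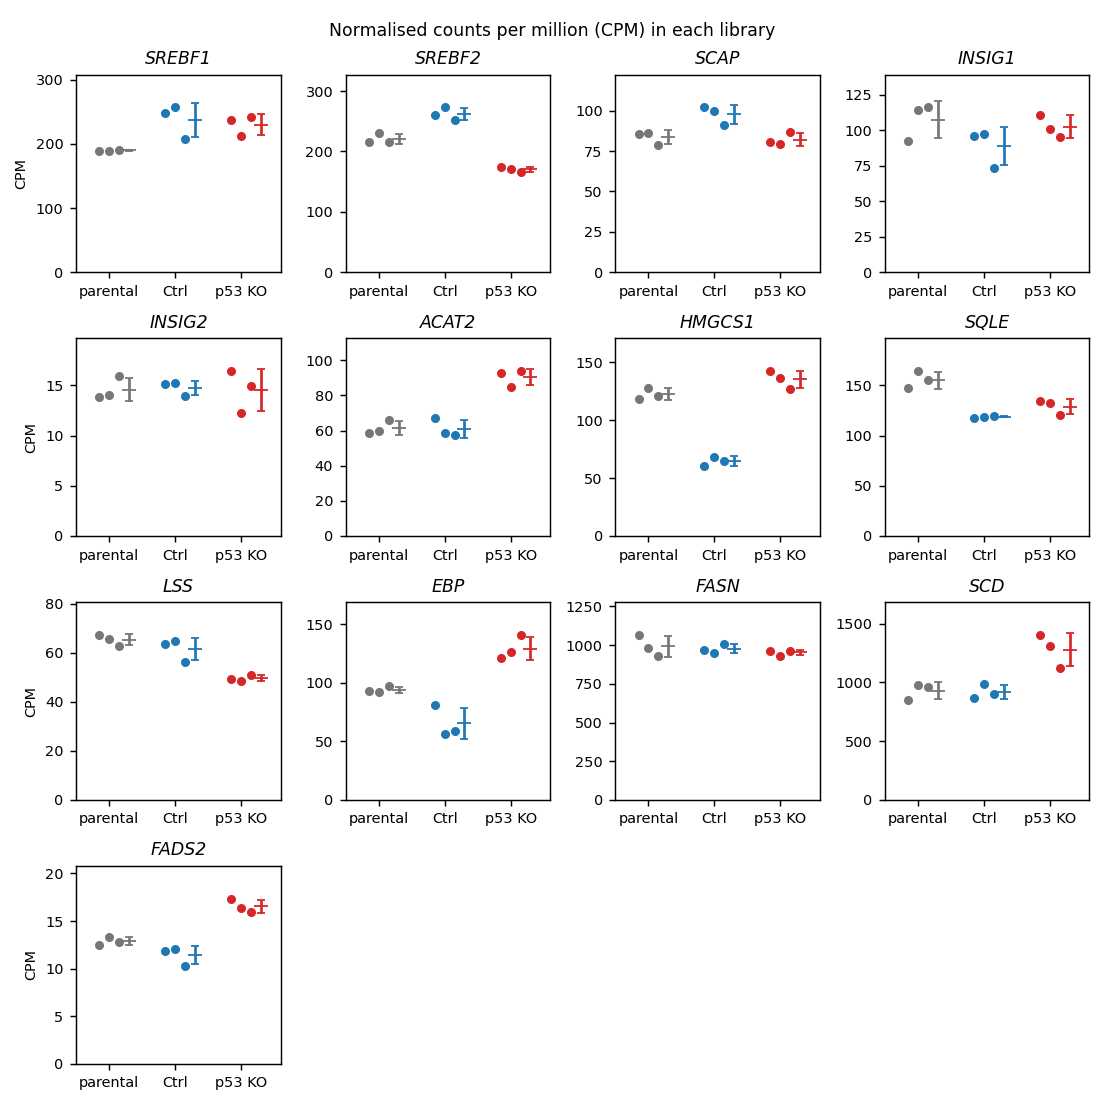
Each panel shows a gene with a point per library (CPM, axis from 0), and the bar beside the points is the group mean with its SD, n = 3. The p53 KO points of SREBF2 (166 to 175 CPM) and LSS (48.7 to 51.1) lie below all controls, those of ACAT2, EBP, SCD and FADS2 lie above all controls, and HMGCS1 is low in Ctrl libraries alone (60.5 to 68.5).

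The mevalonate branch runs from acetyl-CoA to farnesyl diphosphate. ACAT2, the thiolase that joins acetyl-CoA units at its entry, was at 58.4, 59.9 and 66.2 CPM in parental, 66.9, 58.5 and 57.5 in Ctrl and 92.8, 85 and 93.7 in p53 KO libraries. The controls overlapped and all p53 KO libraries lay above them. ACAT2 rose 1.47-fold against parental (log2 fold change 0.56, SE 0.0857, adjusted p = 0.0012) and 1.49-fold against Ctrl (0.57, adjusted p = 0.000519). These calls held with any library left out, with adjusted p up to 0.0104. Part of its exons (22.2%) lies opposite exons of SOD2 and TCP1 on the other strand, and whether the counting used strand is not stated in the sources used here.

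HMGCS1, which makes HMG-CoA, had the largest log2 fold change of the list, between p53 KO and Ctrl cells. It was at 118, 128 and 121 CPM in parental, 60.5, 68.5 and 64.9 in Ctrl and 142, 136 and 127 in p53 KO libraries. The Ctrl libraries stood far below both other groups, whose ranges overlapped between 127 and 128. HMGCS1 was 2.09-fold higher in p53 KO than in Ctrl cells (1.06, SE 0.0764, adjusted p = 3.41e-06), yet against parental cells the difference was 0.14 (SE 0.0751, adjusted p = 0.229). In Ctrl cells it lay at 0.528 of the parental level (-0.92, adjusted p = 2.5e-05). Both calls held with any library left out. Exons of another gene lie opposite 37.7% of its exon length.

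Of the remaining mevalonate genes, MVK and MVD, which phosphorylate and decarboxylate mevalonate derivatives, and FDPS, the farnesyl diphosphate synthase, were called in no comparison. PMVK, phosphomevalonate kinase, was higher than parental in both p53 KO (0.40, adjusted p = 0.047) and Ctrl cells (0.49, adjusted p = 0.0206). Its p53 KO call was lost in 7 of 9 fits that left out a library, in all but those without Ctrl replicate 1 or 3 (adjusted p 0.0593 to 0.162), and its Ctrl call was lost without any parental library (adjusted p 0.0553 to 0.0784). IDI1, the isopentenyl diphosphate isomerase, was lower than parental in p53 KO (-0.30, adjusted p = 0.0344) and in Ctrl cells (-0.28, adjusted p = 0.0433). Each of its calls was lost in 6 of 9 such fits, with adjusted p up to 0.129 and 0.147. The 6 lost fits left out parental replicate 2 or 3, Ctrl replicate 2, p53 KO replicate 1 or 2, and p53 KO replicate 3 or Ctrl replicate 3 respectively.

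In the steps from squalene to cholesterol, SQLE and LSS sit at the head of the sterol-forming reactions. SQLE, squalene epoxidase, was at 147, 164 and 155 CPM in parental, 118, 119 and 119.5 in Ctrl and 134, 132 and 120.1 in p53 KO libraries. Parental libraries were the highest, and the Ctrl libraries lay just below the lowest p53 KO library. SQLE fell against parental in Ctrl cells (-0.39, SE 0.0704, adjusted p = 0.00377) and in p53 KO cells (-0.27, SE 0.0703, adjusted p = 0.0214), and the groups that had been through CRISPR transfection differed by 0.11 (adjusted p = 0.257). The p53 KO call was lost without parental replicate 2 or 3 or p53 KO replicate 2 or 3 (adjusted p 0.0538 to 0.101).

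LSS, lanosterol synthase, which closes the sterol rings, was at 67.2, 65.8 and 62.8 CPM in parental, 63.8, 64.7 and 56.2 in Ctrl and 49.2, 48.7 and 51.1 in p53 KO libraries. All p53 KO libraries were below all controls, and the controls overlapped. It fell to 0.761 of parental (-0.39, SE 0.0762, adjusted p = 0.00457) and to 0.807 of Ctrl (-0.31, SE 0.0763, adjusted p = 0.0105). No left-out library ended these calls, though the highest adjusted p against Ctrl reached 0.0497.

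EBP, the sterol isomerase that moves the ring double bond, rose in p53 KO cells and was lower in Ctrl than in parental cells. Its values were 92.5, 92.4 and 96.9 CPM in parental, 80.8, 56.6 and 58.9 in Ctrl and 121, 126 and 140.5 in p53 KO libraries. The groups did not overlap, and Ctrl replicate 1 stood nearest to parental. EBP was 1.98-fold higher than in Ctrl cells (0.98, SE 0.124, adjusted p = 0.000159) and 1.37-fold higher than in parental cells (0.46, SE 0.123, adjusted p = 0.0249). The rise against parental was lost without any parental library or p53 KO replicate 2 or 3 (adjusted p 0.0606 to 0.0941). Ctrl differed from parental by -0.52 (adjusted p = 0.0143), lost without parental replicate 3 or Ctrl replicate 2 (0.0541 and 0.0572).

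Among the other genes of this segment, FDFT1, squalene synthase, was lower in p53 KO than in Ctrl cells (-0.43, adjusted p = 0.0164), a call lost without p53 KO replicate 2 (adjusted p = 0.0745). MSMO1, the sterol methyl oxidase, was lower than in parental cells (-0.31, adjusted p = 0.0444), lost without parental replicate 2 or 3 or any p53 KO library (0.0614 to 0.151). CYP51A1, the lanosterol demethylase, was higher in p53 KO than in Ctrl cells (0.49, SE 0.137, adjusted p = 0.0199), lost without p53 KO replicate 1 or 2 (0.0507 and 0.0913). It had only 77 to 201 counts per library. TM7SF2, NSDHL, HSD17B7, SC5D and DHCR7, which carry out later reductions, demethylation and desaturation, were called in no comparison.

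STARD4, which carries cholesterol between membranes, was singled out after its values were seen. It was at 23.7, 29.7 and 30.6 CPM in parental, 11.8, 17.0 and 13.9 in Ctrl and 19.9, 19.2 and 13.3 in p53 KO libraries. Both transfected groups lay below parental and overlapped with each other. The fall was -0.97 in Ctrl (SE 0.174, adjusted p = 0.00348) and -0.67 in p53 KO cells (SE 0.171, adjusted p = 0.0203), the latter lost without parental replicate 2 or 3 or p53 KO replicate 3 (0.0634 to 0.0808). In p53 KO against Ctrl cells STARD4 differed by 0.30 (adjusted p = 0.238).

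Fatty acid synthesis held the most abundant members. FASN, the fatty acid synthase, was at 1064, 979 and 932 CPM in parental, 969, 951 and 1010.5 in Ctrl and 963, 932 and 963 in p53 KO libraries. All groups overlapped, and the differences were -0.06 (SE 0.0659) against parental and -0.04 (SE 0.0659) against Ctrl. SCD, the desaturase that makes monounsaturated fatty acids, was at 849, 982 and 962 CPM in parental, 868, 984 and 898 in Ctrl and 1402, 1313 and 1123 in p53 KO libraries. The controls overlapped, and each p53 KO library lay above them all. SCD rose 1.37-fold against parental (0.46, SE 0.0937, adjusted p = 0.00618) and 1.4-fold against Ctrl (0.48, SE 0.0938, adjusted p = 0.0027), and held with any library left out.

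FADS2, the desaturase at the first step of polyunsaturated fatty acid synthesis, was expressed far lower. It was at 12.5, 13.3 and 12.8 CPM in parental, 11.8, 12.1 and 10.3 in Ctrl and 17.3, 16.4 and 15.9 in p53 KO libraries. No p53 KO library overlapped a control. FADS2 was 1.45-fold higher than in Ctrl cells (0.54, SE 0.091, adjusted p = 0.00108), held with any library left out, and 1.28-fold higher than in parental cells (0.36, SE 0.0902, adjusted p = 0.0183). The rise against parental was lost without any parental library or p53 KO replicate 1 or 2 (adjusted p 0.0525 to 0.08).

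Its neighbour FADS1 was higher in p53 KO than in Ctrl cells (0.27, adjusted p = 0.039), but this call was lost in 7 of 9 fits that left out a library, in all but those without Ctrl replicate 1 or p53 KO replicate 3 (up to 0.167). ACLY, which makes cytosolic acetyl-CoA from citrate, was lower in Ctrl cells than in parental (-0.31, adjusted p = 0.00732) and p53 KO cells (0.27 for p53 KO against Ctrl, adjusted p = 0.0088). LPIN1, the phosphatidate phosphatase of glycerolipid synthesis, was also singled out after its values were seen. It was at 42.1, 49.1 and 45.0 CPM in parental, 24.4, 33.0 and 35.1 in Ctrl and 45.4, 50.1 and 39.7 in p53 KO libraries, so that Ctrl libraries alone were low. The difference was -0.55 in Ctrl against parental (adjusted p = 0.0167, and 0.0516 to 0.0701 without parental replicate 2 or 3) and 0.54 in p53 KO against Ctrl (adjusted p = 0.0108, and 0.052 without p53 KO replicate 2). ACACA, which makes malonyl-CoA, and ELOVL6, which elongates palmitate, were called in no comparison.

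The groups thus separated the genes in several ways. How often all genes showed each of these patterns was not counted, so the patterns describe the list and do not set it apart. In 13 of 32 genes no comparison was called. IDI1, SQLE and STARD4 were below parental in both p53 KO and Ctrl cells and PMVK was above it in both, with no call between p53 KO and Ctrl. In HMGCS1, ACLY and LPIN1 the Ctrl cells were low against both other groups and p53 KO was not called against parental. SREBF2 and EBP moved in opposite directions in Ctrl and p53 KO cells. ACAT2, SCD, FADS2 and LSS changed in p53 KO cells against both controls with no call between the controls.

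Counting libraries rather than test results, p53 KO libraries lay wholly outside all 6 control libraries in 9 of 32 genes (28.1%), beside 22.0% of all genes. ACAT2, CYP51A1, EBP, FADS2, SC5D and SCD were above, 6 genes beside 11.9%, and LSS, MVD and SREBF2 were below, 3 genes beside 10.1%. MVD and SC5D were not called by the test in any comparison.

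Per kilobase of exon, levels ranged widely. The mean over all libraries was 199 CPM per kb for SCD, 104 for FASN, 58.9 for ACLY and 54.4 for EBP, and the lowest were 0.915 for TM7SF2, 1.29 for FADS2 and 1.37 for CYP51A1. Summed over the 32 genes, CPM reached 4477 to 4630.3 in parental, 4286 to 4447 in Ctrl and 4628 to 5008 in p53 KO libraries. SCD and FASN made up 41.6 to 47.2% of that sum. Without SCD the sums were 3570.4 to 3649, 3389 to 3552 and 3479 to 3606, and the highest of these was a parental library.

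Libraries of a group differed in this pathway too. The median deviation of the 32 genes from their group mean lay between -0.09 (Ctrl replicate 3) and 0.05 on the log2 scale. The mevalonate genes of Ctrl replicate 1, the shallowest library, had a median of 0.25 above their group mean, while those of Ctrl replicate 3 had -0.15. Without Ctrl replicate 1 and p53 KO replicate 3, the 2 shallowest libraries, a choice made after seeing the depths, 16 genes were called against parental and 15 against Ctrl, and 9 against both. The shares of all genes called rose as well, to 30.8% against parental and 38.1% against Ctrl, and that against both was not counted. Depth's part in the results was not tested.

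Several of the genes that rose sit in stretches of the genome whose other genes rose as well. Neighbours were the tested genes within 10 Mb on the same chromosome. Around SCD on chromosome 10, 130 neighbours had a median log2 fold change of 0.48 against parental and 0.55 against Ctrl, beside 0.46 and 0.48 for SCD itself. Around ACAT2 on chromosome 6, the median of 68 neighbours was 0.39 and 0.54, beside 0.56 and 0.57 for the gene. CYP51A1 on chromosome 7 had 115 neighbours at 0.34 and 0.39, beside its own 0.27, which was not called, and 0.49, which was. EBP on the X chromosome had 103 neighbours with medians of 0.18 against parental, 0.80 against Ctrl and -0.58 for Ctrl against parental, and EBP itself had 0.46, 0.98 and -0.52. For SREBF2 on chromosome 22, 209 neighbours gave -0.16 and -0.24, in the direction of the gene and smaller than its -0.37 and -0.62.

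Other genes of the list differed from their neighbours in at least some of the comparisons. FADS2 on chromosome 11 had 245 neighbours with medians of 0.08 and -0.04 beside its own 0.36 and 0.54. LSS on chromosome 21 had 72 neighbours at 0.01 and -0.08 beside -0.39 and -0.31. For HMGCS1 on chromosome 5 the median of 58 neighbours was 0.14 against Ctrl, beside 1.06. INSIG1 on chromosome 7 went the opposite way, with 64 neighbours at -0.49 against Ctrl and the gene at 0.20, which was not called. FDFT1 on chromosome 8 had 42 neighbours at 0.25 against parental and was itself at -0.12, not called. Within 5 Mb, its 22 neighbours had a median of only 0.07. Against parental, IDI1 on chromosome 10 had 38 neighbours at -0.19 and was itself at -0.30, a called change in their direction. Against Ctrl its neighbours were at -0.33 and IDI1 at -0.02, not called. A neighbour median more than 0.2 from zero was found for 5, 7 and 2 of the 32 genes for p53 KO set against parental, for p53 KO set against Ctrl and for Ctrl set against parental. Among all 14397 tested genes with a position, the shares were 12.8%, 16.3% and 3.41%. The part of chromosome position in these results was not tested.

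**Figure D4:**
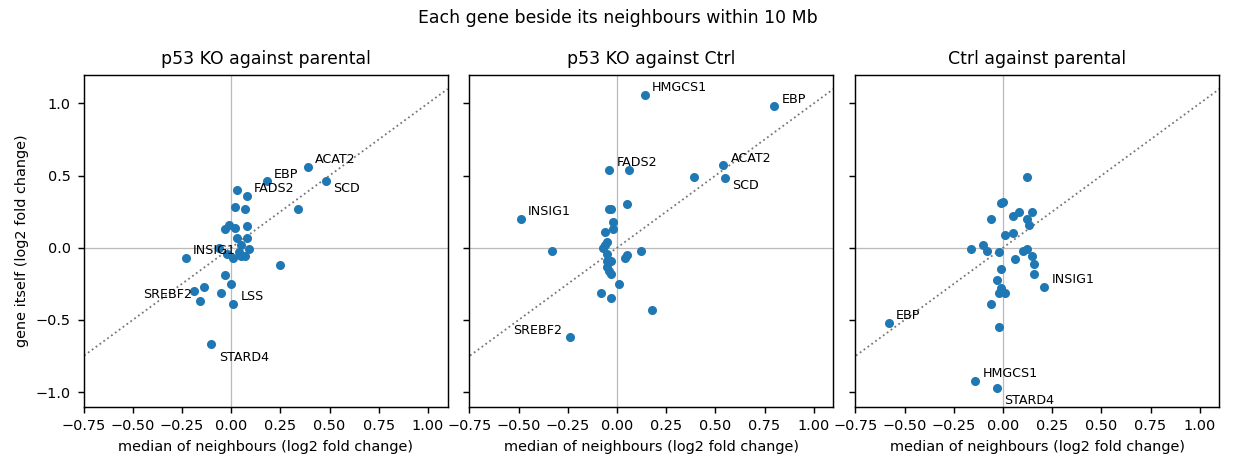
Each point is a gene of the list, with the median log2 fold change of the tested genes within 10 Mb on the horizontal axis and its own on the vertical axis, and the dotted line marks equal values. In p53 KO against Ctrl cells EBP, ACAT2 and SCD lie near the line (neighbours 0.80, 0.54 and 0.55), while HMGCS1, FADS2 and LSS lie off it, with neighbours between -0.08 and 0.14.

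Genes around the pathway showed similar mixtures. Of 13 genes that process or retain SREBP in the endoplasmic reticulum and Golgi, 3 rose and 2 fell against both controls, where 6.46% of all genes rose and 5.25% fell. SAR1A, a GTPase of COPII vesicles, rose by 0.78 and 0.83 against parental and Ctrl, and its neighbours had medians of 0.42 and 0.44. ERLIN2, which takes part in sterol-dependent protein degradation, rose by 0.37 and 0.52, with neighbours at 0.42 and 0.49. SEC24D, a COPII coat protein, fell (-0.43 and -0.37), with neighbours at 0.01 and 0.03.

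In the isoprenoid branch and prenylation, 1 of 14 genes changed against both controls, beside 11.7% of all genes. This was FNTA, the shared subunit of farnesyl and geranylgeranyl transferase, which rose by 0.44 and 0.66 with neighbours at 0.38 and 0.49. Among 13 tested of 18 genes of sterol uptake, transport, efflux and storage, MYLIP, a ubiquitin ligase that sends lipoprotein receptors for degradation, was the only change against both (-0.33 and -0.68). Its adjusted p by edgeR was 0.0498 against parental, just inside the threshold, and 0.000601 against Ctrl. Of 12 tested of 13 other glycerolipid genes, GPAT3 (0.44 and 0.84) and GPAT4 (0.37 and 0.47), acyltransferases of the first step, rose. GPAT3 had neighbours at -0.03 and 0.02, and GPAT4 at 0.42 and 0.52.

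No gene changed against both controls among the 7 promoter partners (NF-Y subunits, SP1, SP3 and USF genes). The same held for 6 further genes of the sterol steps, LBR, ERG28, CYB5R3, CYB5B, CYB5A and POR. It held too for 22 tested of 26 other fatty acid synthesis and activation genes. Against single controls, 1 and 0, 1 and 3, and 4 and 6 genes of these lists in turn were called against parental and Ctrl respectively, beside 18.1% and 29.2% of all genes. Fatty acid oxidation showed no call against both either, with 2 of 13 genes up against parental (all genes 9.77%) and 5 down against Ctrl (all genes 14.2%) by edgeR's adjusted p. In Ctrl against parental cells 4 of these 13 rose, beside 10.6% of all genes, and their summed CPM was 1147 to 1194 in parental, 1317 to 1515 in Ctrl and 1251 to 1283 in p53 KO libraries.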

How the data were processed

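Poly(A) RNA of the parental, Ctrl and p53 KO lines of A431 was measured in 3 strand-specific libraries per group, with read pairs of 75 bp. STAR 2.5.1b was used by the authors for alignment to GRCh38, and featureCounts for assigning read pairs to genes of Ensembl release 85. The counts were deposited by the authors as whole numbers without normalisation. The strand setting of the counting is not given in the sources used here. Of 58051 genes, 30587 had no count. Columns were matched to libraries by name, and no library was left out. The RNA level of the targeted gene is not reported here.

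Counts were analysed with edgeR 4.0.16 in R 4.3.3. The filter filterByExpr with a minimum count of 10 left 14513 genes, libraries were scaled by TMM, and the model, with a mean for each group, took in all 9 libraries. Groups were compared by the two-sided quasi-likelihood test, p-values were adjusted by Benjamini-Hochberg over all genes tested, and standard errors follow from the F statistic. A gene was called at an adjusted p of at most 0.05. The scripts were tested on simulated data. Exon lengths and positions came from GENCODE release 44 (GRCh38), and promoter windows from RefSeq.

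The genes with values in every library were set by a rule, namely the SREBP regulators, HMGCS1, SQLE, FASN and SCD, those called against both controls, and the 6 with the largest mean change. Of other pathway lists, up to 3 genes called against both controls were named. Although the rule for the 32 genes names no measured value, they and the other lists were chosen with earlier results of these data known. Alternatives were DESeq2 1.42.0, its size factors, library totals, other filters, a replicate block, fits of only the groups compared, other thresholds and each library left out. Depth ranged from 19783778 to 29840452 counts, which covers counting error only. Figures were drawn with matplotlib 3.10.9.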

Additional observations from a re-analysis of the deposited data

Results flagged for a closer look

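SREBF2 and EBP stood out because p53 KO and Ctrl cells moved away from parental cells in opposite directions. Their difference between p53 KO and Ctrl was part of what picked them, so its p-value is no separate test. SREBF2 was higher in Ctrl (0.25) and lower in p53 KO cells (-0.37) than in parental cells, which gave a log2 fold change of -0.62 in p53 KO against Ctrl (adjusted p = 4.39e-05 by edgeR). EBP was lower in Ctrl (-0.52) and higher in p53 KO cells (0.46), which gave 0.98 (adjusted p = 0.000159). The 103 neighbours of EBP had medians of -0.58 in Ctrl and 0.18 in p53 KO cells against parental, and those of SREBF2 0.08 and -0.16. Over 9 fits with 1 library omitted, the call of SREBF2 in Ctrl against parental was lost in 3, and those of EBP in p53 KO and in Ctrl against parental in 5 and 2. The part of chromosome position was not tested.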

How the results depend on the processing

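No called difference changed its sign under the alternatives run. Differences near zero that were not called did, such as MVK for p53 KO versus Ctrl, from -0.22 to 0.13 with each library left out. DESeq2, its size factors, library totals, other filters and fits of only the groups compared left the number of genes called within 1.5 times of the 11, 13, 10 and 6 called for p53 KO versus parental, p53 KO versus Ctrl, Ctrl versus parental and versus both controls. A log2 fold change above 1.5 left 0, 0, 0 and 0, one of at least 0.5 left 2, 6, 4 and 1, and an adjusted p of at most 0.01 left 4, 7, 4 and 3. The shares of all genes at the last 2 of these thresholds were not counted, so these numbers do not set the list apart from other genes. Deviations of same-numbered libraries from their group means correlated at -0.348 to 0.041. Those of differently numbered libraries correlated at -0.222 to 0.395, highest for Ctrl replicate 1 with p53 KO replicate 3, the 2 shallowest. These values do not show whether libraries were prepared in pairs. With the replicate block 6 genes were called against parental, beside 1757 in place of 2631 of all genes (12.1% in place of 18.1%). It gave 11 against Ctrl (all genes 23.5% in place of 29.2%) and 7 between the controls (11.7% in place of 20.3%). Against both controls it gave 5. Leaving out each library in turn gave 4 to 13, 8 to 14, 4 to 13 and 4 to 6. Against parental, 4 were called without parental replicate 2 or 3, 7 without p53 KO replicate 1, and 5 without p53 KO replicate 2 or 3. In these fits 11.4% to 12.1% of all genes were called, in place of 18.1%. Against Ctrl, 8 were called without p53 KO replicate 2, beside 21.0% of all genes in place of 29.2%. Between the controls, 6, 4 and 6 were called without parental replicate 2, parental replicate 3 and Ctrl replicate 2. The shares of all genes were then 10.5%, 10.7% and 13.7%, in place of 20.3%. The list's median log2 fold change ranged from -0.02 to 0.03, -0.05 to 0.07 and -0.10 to -0.01 in the 3 comparisons, and without the 2 shallowest libraries the last was -0.11. With 3 libraries per group, calls with an adjusted p near 0.05 depend on single libraries, and genes with few counts, such as CYP51A1 (77 to 201), carry the largest counting error.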
